A study of Arabidopsis thaliana with 12 samples.

Results

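The 10 genes described here encode a core of the circadian clock of Arabidopsis thaliana. They are the pseudo-response regulators TOC1, PRR3, PRR5, PRR7 and PRR9, the evening complex proteins ELF3, ELF4 and LUX, and GI and ZTL. They were taken by locus identifier for their known role in the clock, with earlier results of these data known, and they are 10 of the 33655 genes in the count table. All 10 passed the filter on low counts, which left 18487 genes to be tested, but PRR5 and PRR9 passed it through their red light libraries alone.

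The libraries came from whole seedlings of the b''ab''b double mutant and of the wild type Col-0, either exposed for 1 h to red light (8 µmol of photons per square metre and second) or left in the dark. All of them had 3 days of cold, 3 h of white light (25 µmol of photons) and then 4 days of darkness at 22 °C, on medium without sucrose. There were 3 libraries in each of 4 groups: b''ab''b red, b''ab''b dark, Col-0 red and Col-0 dark. The mutant is named for B''α and B''β, subunits that direct protein phosphatase 2A to its substrates, and its alleles were not given in the sources used here. Each read is a tag from the 3′ part of a transcript, and levels are in CPM, counts scaled to library size, compared here between libraries for 1 gene at a time. Whether the 3 libraries of a group came from separate cultures is not in the labels, so p-values measure only the spread between these samples, and that spread may be technical. Since RNA was taken from whole seedlings, fewer cells expressing a gene and less RNA per cell cannot be told apart.

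The plant clock is a ring of transcription factors that repress one another through the day. PRR9, PRR7, PRR5 and TOC1 peak one after another from morning to evening and repress the morning genes CCA1 and LHY, whose products in turn repress the evening genes through a promoter sequence called the evening element. At dusk ELF3, ELF4 and LUX join as the evening complex, which represses PRR9, PRR7, GI, LUX and the growth regulators PIF4 and PIF5 in the night. GI is a large evening protein that stabilises ZTL, a blue light receptor that marks TOC1 and PRR5 for breakdown. Red light is seen by the phytochromes, and in dark-grown seedlings the first light sets the clock.

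The libraries held 2874429 to 4979055 counts. Transcripts of B''α (AT5G44090) stood at 3.88 to 6.29 CPM in the 6 b''ab''b libraries and 24.4 to 31.2 CPM in the 6 Col-0 libraries. B''β (AT1G03960) had 3 to 9 counts per library in b''ab''b and 8 to 20 in Col-0, and a tag outside the disrupted part checks nothing. On the principal component with the second largest share of variance (9.92%), Col-0 dark replicate 1 (score −27.5) and b''ab''b dark replicate 3 (−25.0) stood apart from the other 4 dark libraries (8.15 to 20.2). These 2 libraries were also the deepest, and results below that rest on them are given with and without them.

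A set of 4 promoters is shown first because they hold sequence motifs of known light and clock factors, in 3 genes whose transcripts rose in red light (PRR9, PRR7 and LUX) and in TOC1, whose change did not pass the test. Each is the 250 bases before the annotated start of the gene in TAIR10.1, from the genome sequence, written 5′ to 3′ on the strand of the gene. Capitals mark matches, on either strand, to the G-box CACGTG, the related PBE-box CACATG, the evening element AAAATATCT and the LUX-binding sequence GATTCG. The promoters lie at chr2:19232357-19232606 (PRR9, plus strand), chr5:642031-642280 (PRR7, minus strand), chr3:17182792-17183041 (LUX, plus strand) and chr5:24674713-24674962 (TOC1, plus strand).
PRR9: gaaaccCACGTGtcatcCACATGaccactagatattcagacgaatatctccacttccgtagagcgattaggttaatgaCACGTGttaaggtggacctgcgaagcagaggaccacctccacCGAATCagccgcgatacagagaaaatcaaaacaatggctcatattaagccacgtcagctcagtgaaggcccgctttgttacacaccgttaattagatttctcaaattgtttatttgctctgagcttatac
PRR7: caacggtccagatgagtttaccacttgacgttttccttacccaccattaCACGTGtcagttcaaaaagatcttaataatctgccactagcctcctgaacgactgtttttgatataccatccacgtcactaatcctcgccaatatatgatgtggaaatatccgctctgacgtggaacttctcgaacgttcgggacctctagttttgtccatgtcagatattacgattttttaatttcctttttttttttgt
LUX: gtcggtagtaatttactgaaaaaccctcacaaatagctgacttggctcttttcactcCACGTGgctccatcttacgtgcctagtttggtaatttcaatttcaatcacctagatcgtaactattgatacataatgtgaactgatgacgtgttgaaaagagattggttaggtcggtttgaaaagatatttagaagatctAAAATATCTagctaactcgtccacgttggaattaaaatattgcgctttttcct
TOC1: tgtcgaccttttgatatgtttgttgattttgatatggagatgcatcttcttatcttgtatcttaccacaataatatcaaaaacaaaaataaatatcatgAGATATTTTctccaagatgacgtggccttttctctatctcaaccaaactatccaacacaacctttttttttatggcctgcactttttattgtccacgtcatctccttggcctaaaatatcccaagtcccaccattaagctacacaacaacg

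Motifs were counted on both strands in the window from 250 bases before to 50 bases after the start, over 9 of the 10 genes and over 27443 promoters of the annotation. The G-box, bound by PIF and HY5 factors, was in PRR7 (bases −201 to −196 from the start), in LUX (−193 to −188) and at 2 places in PRR9 (−244 to −239 and −172 to −167), that is in 3 of the 9 genes and in 7.68% of all promoters. The evening element was in 4 of the 9, TOC1 (−151 to −143), PRR5 (−187 to −179), LUX (−53 to −45) and PRR9 (26 to 34 bases after the start), and in 2.82% of all promoters. In the PRR5 promoter a CCA1-binding site, AAAAATCT, lay just before its evening element (−198 to −191), and 7.88% of all promoters held that sequence.

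GATACG, another sequence bound by LUX, was in ELF3 and in 5.54% of all promoters. The FHY3/FAR1 site CACGCGC, bound by a pair of factors of phytochrome A signalling, was in none of the 9 and in 1.34% of all promoters. GATTCG (9.58%) and the PBE-box (12.9%) were in PRR9. PRR3, GI and ZTL held none of these letters in this window, which says nothing on sites farther away. A match is a stretch of letters and was not shown here to be bound.

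Of the 10 genes, 7 rose after 1 h of red light in b''ab''b, and the same 7 rose in Col-0: PRR5, PRR7, PRR9, ELF4, LUX, GI and ZTL. None of the 10 fell. PRR5 and PRR9 were at or above the filter's minimum (2.36 CPM) in no dark library, so a gene tested at such levels had to be higher in red light, and of the other 8 genes 5 rose in each genotype. Over all tested genes edgeR called 10.7% higher and 5.27% lower in b''ab''b red than in b''ab''b dark, and 10.6% higher and 4.68% lower in Col-0 red than in Col-0 dark (adjusted p under 0.05). The median log2 change of the 10 genes was 1.50 in b''ab''b and 1.68 in Col-0, against −0.01 and −0.02 over all tested genes. That median counts PRR5 and PRR9. Among the other 8 genes the middle of the ranked log2 changes lay between ZTL and LUX. These were 0.69 and 1.14 in b''ab''b, and 0.59 and 1.14 in Col-0. The changes of the 7 ran from 1.61-fold for ZTL to 10.3-fold for GI in b''ab''b and from 1.51-fold to 9.50-fold for the same pair of genes in Col-0, with PRR9 left out because it had no counts in the dark.

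For each of these 7 genes all 6 red light libraries lay above all 6 dark libraries. How many of all tested genes did so over both genotypes together was not counted. Within b''ab''b alone, every red library lay above every dark library for the 7 genes and for 17.0% of all tested genes. Within Col-0 alone this held for the 7 genes and for 16.5%. In the order of the 4 group means both red groups came above both dark groups for all 7 genes, and the ranges of the 2 red groups overlapped for each of the 7. The 2 dark groups overlapped as well, with the exception of ELF4, where the closest libraries were at 4.41 CPM (b''ab''b) and 4.38 CPM (Col-0).

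**Figure D1:**
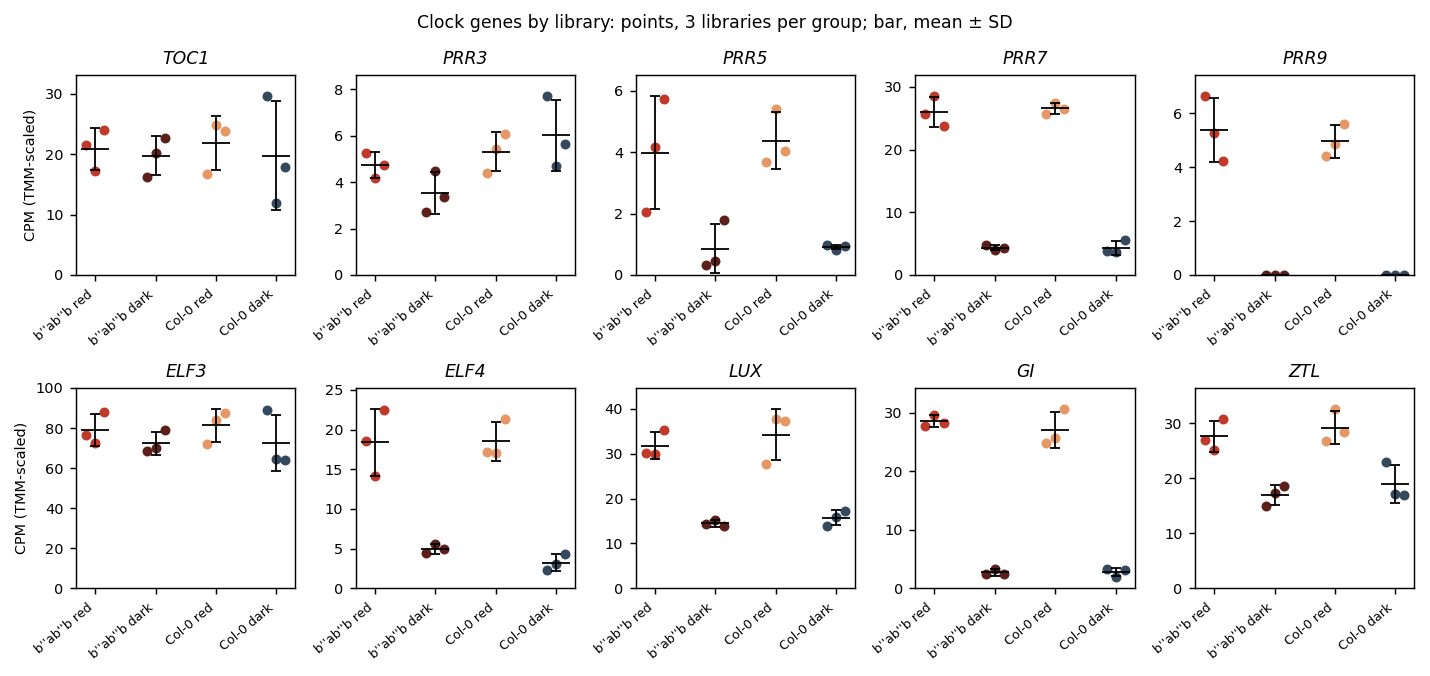
Level of each gene in CPM on TMM-scaled library sizes (vertical axes start at 0 and differ between panels) for 3 libraries in each of 4 groups, with a bar for the mean and whiskers for the SD. In the panels of PRR5, PRR7, PRR9, ELF4, LUX, GI and ZTL every red light point lies above every dark point, while TOC1, PRR3 and ELF3 overlap.

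PRR7 (AT5G02810, chromosome 5, 637681 to 642030, minus strand, 8 exons), a morning repressor of CCA1 and LHY, rose in both genotypes. It stood at 25.6, 28.5 and 23.7 CPM in the b''ab''b red libraries, against 4.75, 4.04 and 4.34 CPM in the b''ab''b dark libraries. The Col-0 red libraries had 25.7, 27.4 and 26.5 CPM, against 3.85, 3.59 and 5.64 CPM in the Col-0 dark libraries. The lowest red library was thus far above the highest dark library in both genotypes. The log2 change was 2.57 ± 0.18 SE in b''ab''b (edgeR adjusted p = 1.45e-10) and 2.63 ± 0.18 in Col-0 (edgeR adjusted p = 1.20e-10).

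PRR9 (AT2G46790, chromosome 2, 19232607 to 19235179, plus strand, 6 exons) is the regulator that peaks first after dawn. It had 29, 19 and 17 counts in the b''ab''b red libraries and none in any b''ab''b dark library. In Col-0 it had 18, 18 and 25 counts in red light and again none in the dark. It was seen in every red library and in no dark library. A count of 0 still allows up to 3 counts over the 3 dark libraries of a genotype, which is 0.241 CPM in b''ab''b and 0.250 CPM in Col-0, counting error only. Measured against that limit, the mean of PRR9 was at least 22.4-fold higher in b''ab''b red light (5.38 ± 1.20 CPM, SD, n = 3) and at least 19.9-fold higher in Col-0 red light (4.97 ± 0.610 CPM). These bounds cover the counting error in the dark and leave out the spread of the red libraries. Both changes passed (edgeR adjusted p = 1.03e-06 in b''ab''b and 1.89e-06 in Col-0), in a gene that reached the test through its red libraries alone.

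The counts of PRR9 are uncertain because part of the gene has a near copy on the same chromosome. A run of 869 bases (chromosome 2, 19234399 to 19235267) that holds 781 exon bases of its 2045-base transcript is identical in AT2G46670, and the last 500 bases of the transcript, where tags fall, match it at 100%. The handling of reads that match several places was not given in the sources used here. AT2G46670 itself had 4, 2 and 3 counts in the b''ab''b red libraries and 7, 7 and 6 in the Col-0 red libraries, and none in any dark library. The copy was thus seen in the same libraries as PRR9.

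PRR5 (AT5G24470, chromosome 5, 8356204 to 8358546, minus strand, 6 exons), the afternoon member of the family, was scarce. It stood at 2.06, 4.15 and 5.74 CPM in the b''ab''b red libraries, against 0.339, 0.449 and 1.78 CPM in the b''ab''b dark libraries. In Col-0 it stood at 3.67, 5.42 and 4.05 CPM in red light, against 0.963, 0.827 and 0.939 CPM in the dark. The groups did not overlap, but in b''ab''b the lowest red and the highest dark library were close. The rise was 2.02 ± 0.50 on the log2 scale in b''ab''b (edgeR adjusted p = 0.00587) and 2.21 ± 0.50 in Col-0 (edgeR adjusted p = 0.00280). The call in b''ab''b was lost without b''ab''b red replicate 3 (log2 1.65, edgeR adjusted p = 0.0596). Without b''ab''b dark replicate 3, a library that stood apart, the value was 3.19 (edgeR adjusted p = 9.04e-04).

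TOC1 (AT5G61380, chromosome 5, 24674963 to 24678550, plus strand, 6 exons), the evening repressor and founding member of the family, did not pass in either genotype. It stood at 21.5, 17.2 and 24.0 CPM in the b''ab''b red libraries, against 16.3, 20.2 and 22.7 CPM in the b''ab''b dark libraries. The Col-0 red libraries had 16.7, 24.9 and 23.8 CPM, against 29.7, 11.9 and 17.8 CPM in the dark. Red and dark libraries overlapped in both genotypes, and the widest spread was among the Col-0 dark libraries. The log2 change was 0.06 (95% interval −0.42 to 0.54) in b''ab''b and 0.08 (−0.39 to 0.56) in Col-0, with edgeR adjusted p = 0.904 and 0.869.

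PRR3 (AT5G60100, chromosome 5, 24197971 to 24201415, minus strand, 9 exons), which protects TOC1 from ZTL and is known from the vasculature, did not pass either. It stood at 5.27, 4.15 and 4.74 CPM in the b''ab''b red libraries, against 2.71, 4.49 and 3.36 CPM in the b''ab''b dark libraries. In Col-0 it stood at 4.41, 5.42 and 6.07 CPM in red light, against 7.70, 4.69 and 5.64 CPM in the dark. The log2 change was 0.40 (95% interval −0.23 to 1.02) in b''ab''b and −0.21 (−0.77 to 0.35) in Col-0, with edgeR adjusted p = 0.448 and 0.686. Of the 5 family members 3 therefore rose in both genotypes and 2 did not pass in either. Of those 3, PRR5 and PRR9 reached the test through their red libraries alone, and PRR7 passed the filter on its dark libraries too. Among the proteins of the family, TOC1 and PRR9 were the least alike (30.6% identical over 448 aligned residues) and PRR3 and PRR7 the most alike (51.4% over 479). The most alike pair thus held 1 gene that rose and 1 that did not pass.

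**Figure D2:**
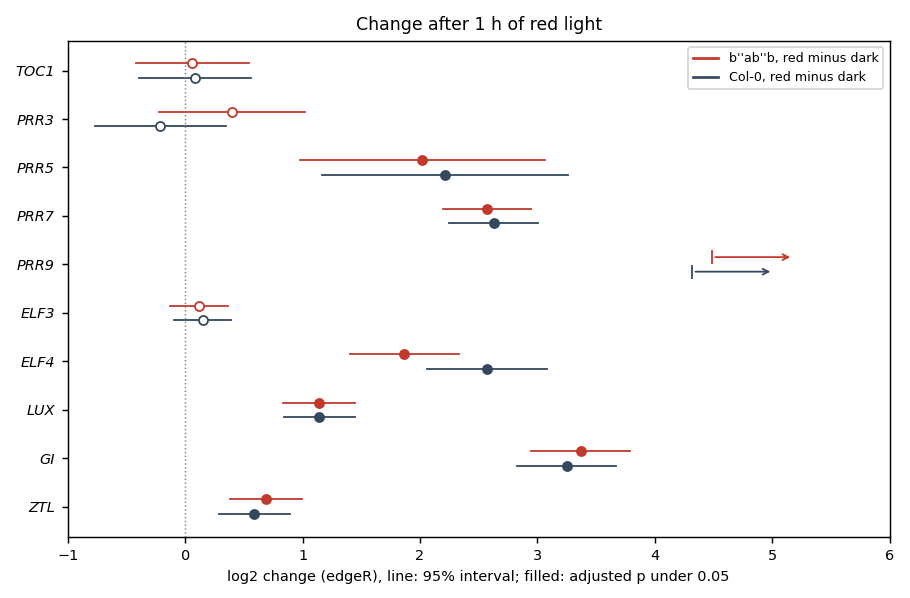
Change after 1 h of red light on the log2 scale (horizontal axis) for each gene, red minus dark, in b''ab''b and in Col-0, with 95% intervals from edgeR and filled points where the adjusted p was under 0.05. The bars with arrows for PRR9 start at its lower bound (log2 4.48 in b''ab''b and 4.31 in Col-0), since it had no counts in the dark. That bound sets the mean red level over the dark limit and leaves out the spread of the red libraries. GI lies highest of the genes with a point, and the points of TOC1, PRR3 and ELF3 are open in both genotypes.

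Of the 3 evening complex genes 2 rose. ELF4 (AT2G40080, chromosome 2, 16734294 to 16734953, minus strand, 1 exon) encodes a small protein of 111 residues that lets ELF3 act in the nucleus. ELF4 stood at 18.5, 14.1 and 22.5 CPM in the b''ab''b red libraries, against 4.41, 5.62 and 4.94 CPM in the b''ab''b dark libraries. The Col-0 red libraries had 17.1, 17.1 and 21.4 CPM, against 2.31, 3.03 and 4.38 CPM in the dark. Every red library lay well above every dark library. ELF4 rose by 1.87 ± 0.22 on the log2 scale in b''ab''b (edgeR adjusted p = 9.60e-07) and by 2.57 ± 0.25 in Col-0 (edgeR adjusted p = 3.01e-08).

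LUX (AT3G46640, chromosome 3, 17183042 to 17186959, plus strand, 2 exons) is the DNA-binding subunit of the complex. LUX stood at 30.2, 29.9 and 35.2 CPM in the b''ab''b red libraries, against 14.2, 15.3 and 13.8 CPM in the b''ab''b dark libraries. In Col-0 it stood at 27.7, 37.7 and 37.3 CPM in red light, against 13.9, 16.0 and 17.2 CPM in the dark. The lowest red library lay well above the highest dark library in each genotype. LUX rose by 1.14 ± 0.15 on the log2 scale in b''ab''b (edgeR adjusted p = 3.26e-06) and by 1.14 ± 0.15 in Col-0 (edgeR adjusted p = 2.45e-06). LUX overlaps the antisense gene AT3G46650 by 1507 bases, a gene with 0 to 19 counts per library, and the strand setting of the counting was not given in the sources used here.

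ELF3 (AT2G25930, chromosome 2, 11058944 to 11063324, plus strand, 4 exons), the scaffold that holds the complex together and links it to phytochrome B, did not pass in either genotype. ELF3 stood at 76.5, 72.3 and 87.9 CPM in the b''ab''b red libraries, against 68.5, 69.9 and 79.0 CPM in the b''ab''b dark libraries. Col-0 seedlings had 72.3, 84.0 and 87.7 CPM in red light, against 88.8, 64.5 and 64.2 CPM in the dark. Red and dark libraries overlapped in both genotypes. The log2 change was 0.12 (95% interval −0.13 to 0.36) in b''ab''b and 0.15 (−0.09 to 0.39) in Col-0, with edgeR adjusted p = 0.591 and 0.468. ELF3 overlaps the antisense gene AT2G25940 by 24 bases at its 3′ end, and AT2G25940 as a whole had 26 to 44 counts per library. It also overlaps the antisense RNA gene AT2G08135 by 183 bases, and that gene had 0 to 1 counts per library.

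GI (AT1G22770, chromosome 1, 8061751 to 8067790, plus strand, 14 exons), the partner that stabilises ZTL and promotes flowering in long days, had the largest change of the genes with counts in the dark. GI stood at 27.7, 29.6 and 28.2 CPM in the b''ab''b red libraries, against 2.37, 3.37 and 2.37 CPM in the b''ab''b dark libraries. In Col-0 it stood at 24.7, 25.7 and 30.6 CPM in red light, against 3.27, 1.93 and 3.13 CPM in the dark. The 6 red libraries were close together, and so were the 6 dark libraries. GI rose by 3.37 ± 0.20 on the log2 scale in b''ab''b (edgeR adjusted p = 9.40e-12) and by 3.25 ± 0.20 in Col-0 (edgeR adjusted p = 2.20e-11). Its 250-base promoter held none of the 7 motifs searched.

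ZTL (AT5G57360, chromosome 5, 23241320 to 23244590, plus strand, 2 exons) had the smallest change among those called. ZTL stood at 27.0, 25.2 and 30.7 CPM in the b''ab''b red libraries, against 14.9, 17.3 and 18.6 CPM in the b''ab''b dark libraries. Col-0 seedlings had 26.7, 32.5 and 28.3 CPM in red light, against 22.9, 17.1 and 16.9 CPM in the dark. Again no red library overlapped a dark one. ZTL rose by 0.69 ± 0.15 on the log2 scale in b''ab''b (edgeR adjusted p = 0.00148) and by 0.59 ± 0.14 in Col-0 (edgeR adjusted p = 0.00529). Its relative LKP2 (AT2G18915), an F-box protein of the same family, did not pass (log2 0.16 ± 0.17 in b''ab''b and 0.02 ± 0.18 in Col-0). FKF1, the remaining member of that family, was too scarce to be tested, with group means of 0.411 to 0.613 CPM.

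Scaling by library totals alone in place of TMM shifted the median of all tested genes by −0.14 in b''ab''b and −0.12 in Col-0 on the log2 scale. The split of calls over all genes then turned from 1983 higher and 975 lower to 1517 and 2342 in b''ab''b, and from 1954 and 865 to 1500 and 2006 in Col-0. The 10 genes still had 7 higher and 0 lower in each genotype. The small changes of TOC1 in both genotypes (−0.08 and −0.03) and of ELF3 in b''ab''b (−0.02) took the opposite sign, and none of these passed.

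A single dark library held the highest level of several of these genes. Col-0 dark replicate 1 was the highest of the 6 dark libraries for TOC1, PRR3, ELF3 and ZTL, 4 of the 9 genes with counts in the dark. How many of all tested genes were highest in that library was not counted. The library b''ab''b dark replicate 3 was the next highest for TOC1, ELF3 and ZTL. Over all 12 libraries the deviations of each gene from its group mean correlated at Pearson r = 0.89 between ELF3 and ZTL, 0.89 between TOC1 and ELF3, 0.87 between TOC1 and ZTL and 0.81 between TOC1 and PRR3, a description over libraries that share depth and scaling. These were the highest values among pairs of the 9 genes, and the lowest was −0.43 between PRR7 and ZTL. The morning genes CCA1 and LHY were not highest in Col-0 dark replicate 1, which ranked 3 of 6 for both. In the dark CCA1 ranged from 48.0 to 53.9 CPM and LHY from 140 to 172 CPM. Of the 14 morning MYB and LNK genes 1, RVE2, was highest in that library (117 CPM), with b''ab''b dark replicate 3 next (99.1 CPM).

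Without these 2 dark libraries, the log2 change in Col-0 was 0.34 for ELF3 (edgeR adjusted p = 0.0183) and 0.57 for TOC1 (edgeR adjusted p = 0.0478). With all libraries it was 0.15 for ELF3 and 0.08 for TOC1. Both passed only after the highest dark library of each was left out, which by itself lowers the dark mean and raises the change. ELF3 also passed when only Col-0 dark replicate 1 was left out (0.34, edgeR adjusted p = 0.0442). PRR3 took the opposite sign in Col-0 without the 2 libraries (0.05) and did not pass. In b''ab''b none of the 3 passed under any alternative tried. The part of depth in these differences was not tested.

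**Figure D3:**
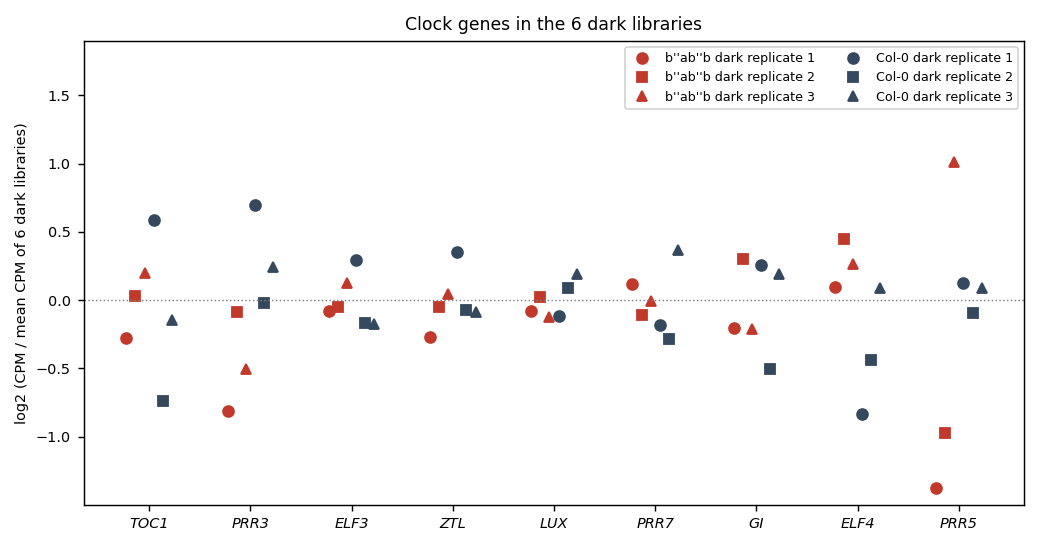
Level of 9 genes in each of the 6 dark libraries, as log2 of CPM over the mean CPM of the 6 (vertical axis), with b''ab''b in red, Col-0 in blue and 1 marker shape per replicate. The Col-0 replicate 1 circle is the highest point for TOC1, PRR3, ELF3 and ZTL, and PRR9 is not drawn because it had no counts in the dark.

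The second question was whether the double mutant differed from Col-0 in these genes. No gene of the 10 was called in red light, where edgeR called 0.0811% of all tested genes in either direction, nor in the dark, where it called 0.0541%. DESeq2 and limma-voom called none of the 10 either. At an unadjusted p under 0.05 edgeR had 0 of the 10 in red light and 2 in the dark. Of all 18487 tested genes it had 849 in red light and 743 in the dark. In red light the log2 differences, b''ab''b minus Col-0, ran from −0.16 for PRR3 to 0.12 for PRR9.

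The intervals show how large a difference these libraries could still hold. The narrowest 95% interval in red light was that of ELF3 (−0.29 to 0.20), followed by LUX (−0.38 to 0.17), PRR7 (−0.32 to 0.25) and ZTL (−0.36 to 0.21), and that of GI was −0.21 to 0.36. The widest was that of PRR5 (−0.94 to 0.66). In the dark PRR5, with 1 to 9 counts per b''ab''b library, had an interval from −1.31 to 1.42, so a difference of that size was not detectable at this depth. PRR9 had no counts in either dark group and gave no estimate there.

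PRR3 and ELF4 were the 2 genes with an unadjusted p under 0.05 in the dark. PRR3 averaged 3.52 ± 0.902 CPM in b''ab''b dark and 6.01 ± 1.54 CPM in Col-0 dark (SD, n = 3 each). PRR3 did not overlap between these groups, but its highest b''ab''b library (4.49 CPM) was close to its lowest Col-0 library (4.69 CPM). Its log2 difference was −0.77 (95% interval −1.37 to −0.17), with edgeR adjusted p = 1.00. It was −0.51 ± 0.34 SE without Col-0 dark replicate 1 and −0.45 ± 0.39 without both dark libraries that stood apart. With each library left out in turn, the difference of PRR3 ran from −0.975 to −0.512. ELF4 averaged 4.99 ± 0.607 CPM in b''ab''b dark and 3.24 ± 1.05 CPM in Col-0 dark. Its lowest b''ab''b library (4.41 CPM) was just above its highest Col-0 library (4.38 CPM). How many of all tested genes were likewise without overlap in the dark was not counted. The log2 difference of ELF4 was 0.69 (95% interval 0.06 to 1.33), with edgeR adjusted p = 1.00. Without Col-0 dark replicate 1 it was 0.46 ± 0.34, and without both libraries 0.48 ± 0.38. With each library left out in turn, the difference of ELF4 ran from 0.456 to 0.945. Neither difference passed over all genes, and the signs were opposite.

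**Figure D4:**
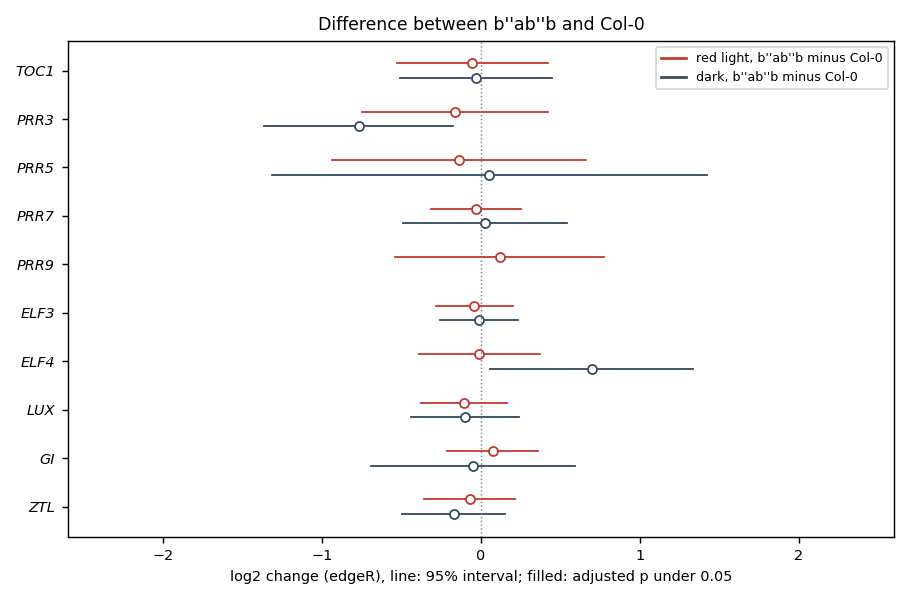
Difference between b''ab''b and Col-0 on the log2 scale (horizontal axis, b''ab''b minus Col-0) in red light and in the dark, with 95% intervals from edgeR and open points where the adjusted p was not under 0.05. All points are open, the intervals of PRR3 and ELF4 in the dark lie to one side of 0 with all libraries kept, and PRR9 has no point in the dark.

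A test of the red response in b''ab''b against that in Col-0 called none of the 10 genes and 0% of all tested genes with edgeR. At an unadjusted p under 0.05 it had 0 of the 10 and 613 of 18487 genes. DESeq2 called 1 gene and limma-voom 0, and neither called a gene of the 10. With all 12 libraries the largest differences between responses were −0.71 for ELF4 (95% interval −1.45 to 0.04) and 0.61 for PRR3 (−0.23 to 1.45), and the others for which it could be estimated ran from −0.19 for PRR5 to 0.12 for GI. Without Col-0 dark replicate 1 they were −0.47 ± 0.39 SE for ELF4 and 0.35 ± 0.44 for PRR3, and TOC1 was at −0.51 ± 0.28. Without both dark libraries that stood apart they were −0.49 ± 0.42 for ELF4 and 0.29 ± 0.49 for PRR3, and the others ran from −0.39 for TOC1 to 0.92 ± 1.05 for PRR5, with none called. With each library left out in turn, ELF4 ran from −0.956 to −0.468 and PRR3 from 0.349 to 0.812. For LUX the difference with all 12 libraries was 0.00 (−0.45 to 0.44). PRR9 gave no estimate because both dark groups were at 0.

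Averaged over light and dark, edgeR called 0.119% of all tested genes between b''ab''b and Col-0, and none of the 10. PRR3 was the 1 gene of the 10 with an unadjusted p under 0.05 in that mean (log2 −0.47, 95% interval −0.88 to −0.05, edgeR adjusted p = 0.885), and it was −0.31 ± 0.24 SE without both dark libraries that stood apart. With each library left out in turn, the mean difference of PRR3 ran from −0.569 to −0.337. Of all 18487 tested genes, 1010 had an unadjusted p under 0.05 in that mean with edgeR. The mean difference was 0.00 for PRR7 (−0.31 to 0.30) and −0.03 for ELF3 (−0.20 to 0.15). These intervals bound the difference and do not show that the genotypes were alike.

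For each of the 7 genes that rose, the 3 genes with the closest pattern over the 12 libraries were taken by Pearson r of log2 CPM among 13389 abundant genes, as a description in which the shared light response sets most of r. PRR7 was followed most closely by the cell wall enzyme gene XTH32 (r = 0.996), by CCA1 (0.995) and by LNK4 (0.995), a gene of the night light-inducible and clock-regulated family. PRR9 was followed by HBP1 (0.998), a haem-binding protein gene, VTC2 (0.998), of vitamin C synthesis, and COL2 (0.996), a B-box gene. The closest to GI were AT3G54980 (0.995), MYB49 (0.994) and AT1G78070 (0.994).

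ELF4 had TCH2 (0.985), a calmodulin-like gene induced by touch, CIPK7 (0.979), a protein kinase gene, and AT5G12010 (0.977). LUX had CYP72A15 (0.982), a cytochrome P450 gene, UBQ14 (0.981), a ubiquitin gene, and RSR4 (0.980), of vitamin B6 synthesis. ZTL had GPS1 (0.976), AT5G56985 (0.975) and CID7 (0.968), and PRR5 had AT1G70780 (0.966), CID7 (0.962) and AT1G22230 (0.953). No gene of the 10 could enter these lists by the rule.

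Genes that work with the 10 were counted in lists of the clock. Of 14 morning MYB and LNK genes, some of which activate or repress the pseudo-response regulators, 13 rose and 0 fell in b''ab''b and in Col-0 (median log2 1.55 and 1.61). LNK1, a coactivator of PRR5 and TOC1, rose by 4.39 ± 0.17 in b''ab''b and 4.12 ± 0.16 in Col-0. LNK4 rose by 2.97 ± 0.13 and 2.99 ± 0.13, LNK3 by 2.71 ± 0.14 and 2.81 ± 0.14, and CCA1 by 1.75 ± 0.09 in each, b''ab''b before Col-0. RVE2 alone in that list did not pass (0.21 ± 0.09 and 0.11 ± 0.09).

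Of 13 partner proteins of the 10 genes, 5 rose and 1 fell in b''ab''b, and 4 rose and 0 fell in Col-0 (median 0.14 and 0.13). HSP90.2, a chaperone of the type that matures ZTL, rose by 1.64 ± 0.07 in b''ab''b and 1.43 ± 0.07 in Col-0. TZP, a phytochrome B signalling protein, rose by 1.48 ± 0.10 and 1.58 ± 0.10, and COP1, a ubiquitin ligase that acts with ELF3 on GI, by 1.10 ± 0.12 in each. Named after their values were seen, BBX19 was the remaining gene that rose in both (1.32 ± 0.15 and 1.30 ± 0.15), PHYB the one called in b''ab''b alone (0.55 ± 0.17, edgeR adjusted p = 0.0273, against 0.26 ± 0.16 and 0.347 in Col-0) and CKB3, a casein kinase subunit gene, the one that fell in b''ab''b (−0.36 ± 0.12, 0.0459, against −0.11 ± 0.12 and 0.640). No gene of any list was called in the test between the 2 responses.

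Of 12 tested outputs and targets of the clock, out of 13 listed, 7 rose and 0 fell in b''ab''b, and 7 rose and 1 fell in Col-0 (median 0.42 and 0.60). PIF5 and PIF4, growth regulators that the evening complex represses at night, rose by 2.02 ± 0.10 and 1.59 ± 0.14 in b''ab''b, and by 1.89 ± 0.10 and 1.98 ± 0.14 in Col-0. CDF3, of the family that GI marks for breakdown with FKF1, rose by 1.72 ± 0.19 in b''ab''b and 2.19 ± 0.20 in Col-0. COR27, named after its values were seen, was the gene that fell in Col-0 (−1.29 ± 0.41, edgeR adjusted p = 0.0328, against −0.62 ± 0.42 and 0.389 in b''ab''b). COR27 was scarce, at 1.58 ± 0.654 CPM in Col-0 red and 3.78 ± 1.11 CPM in Col-0 dark (SD). FT, the flowering signal, was the gene not tested and had no count in any library.

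Of 6 tested close relatives of the 10 genes, out of 9 listed, 1 rose and 1 fell in b''ab''b, and 1 rose and 0 fell in Col-0 (median 0.04 and 0.05). PRR2 rose by 0.76 ± 0.13 in b''ab''b and 0.94 ± 0.13 in Col-0. BOA, the relative of LUX, fell by 0.50 in b''ab''b (SE 0.17, edgeR adjusted p = 0.0455) and stood at −0.08 ± 0.17 in Col-0. None of 8 other clock genes was called in either genotype with edgeR (median −0.28 and −0.14), with 1 of the 8 at an unadjusted p under 0.05 in each.

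**Figure D5:**
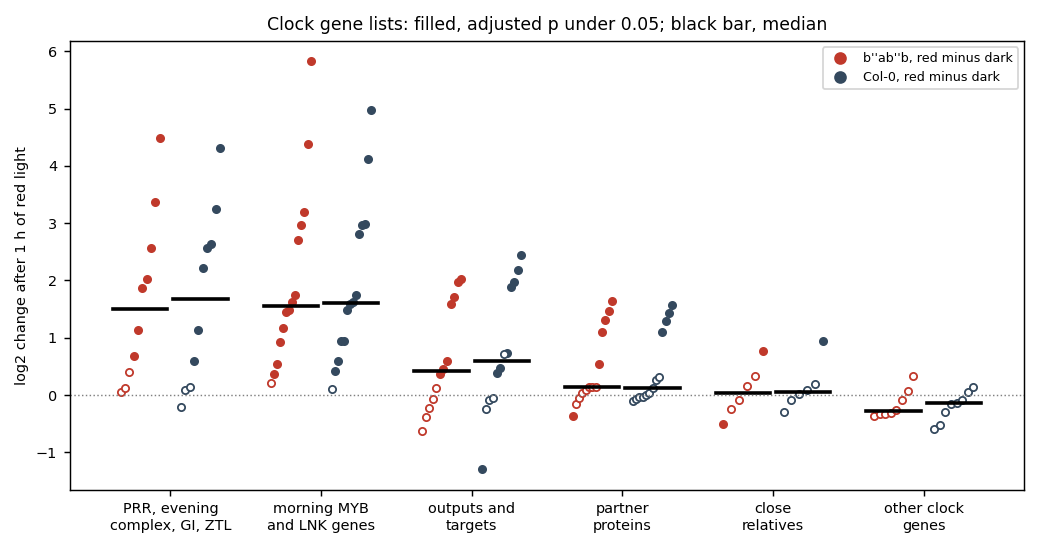
Change after 1 h of red light on the log2 scale (vertical axis) for the tested genes of 6 lists, each point 1 gene, with b''ab''b left of Col-0, filled points where the edgeR adjusted p was under 0.05 and a black bar for the median. The medians are 1.50 and 1.68 for the 10 genes and 1.55 and 1.61 for the morning genes, and PRR9 is drawn at its lower bound. The medians of the 10 genes include PRR5 and PRR9, which reached the test through their red light libraries alone.

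Lists of tissue and stage markers were set beside the response. All 5 dark-grown seedling markers fell in b''ab''b and in Col-0 (median −0.67 and −0.60), with summed levels of 2754 to 3120 CPM in b''ab''b red against 4463 to 4654 CPM in b''ab''b dark, and 2882 to 3311 CPM in Col-0 red against 4565 to 4737 CPM in Col-0 dark. Of these PIL1 fell most (−3.39 ± 0.26 and −3.50 ± 0.26). Of 7 phloem and vasculature markers 1, APL, rose in each genotype (0.52 ± 0.17 and 0.81 ± 0.17). Their summed levels were 259 to 286 CPM in b''ab''b red and 263 to 268 CPM in b''ab''b dark, and 274 to 297 CPM in Col-0 red and 261 to 275 CPM in Col-0 dark.

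No root marker (of 7) and no stomatal or epidermal marker (6 tested of 7) was called in either genotype with edgeR, with 0 and 1 of the root list and 1 and 1 of the epidermal list at an unadjusted p under 0.05 in b''ab''b and Col-0. Of 5 tested seed stage markers, out of 7, PCK1 fell in both genotypes (−0.31 ± 0.08 and −0.24 ± 0.08) and MLS in Col-0 (−0.44 ± 0.12). Seed storage gene SESA1 averaged 0 to 0.791 CPM over the 4 groups. Between b''ab''b and Col-0 no marker was called in red light or in the dark. The part of tissue or stage composition in the changes of the 10 genes was not tested.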

How the data were processed

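The authors deposited whole-number counts per gene for 12 libraries, made per the labels' protocols from total RNA as 3′ tag libraries. Per the submitters' processing notes FastQC, HISAT2, HTSeq, edgeR and TAIR10 were used. Versions, strand and multiple-mapping settings were not given in the sources used here. Summary lines of the counter were left out. All 32548 locus identifiers were found in the TAIR10.1 annotation, which gave names, positions and promoters. Replicates of a group differed beyond sampling noise (chi-square over its degrees of freedom at least 1.56 in each pair).

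All 18487 genes kept by filterByExpr (minimum count 10) were fitted once over the 12 libraries with edgeR 4.0.16 (TMM, quasi-likelihood test, a term per group, Benjamini-Hochberg adjusted p under 0.05) in R 4.3.3, after a test on simulated data. SE is the log2 change over the square root of F, and levels are CPM on TMM-scaled totals. Alternatives were DESeq2 1.42.0, limma-voom (limma 3.58.1), RLE or no factors, no filter, a filter at a mean of 5 CPM, a replicate block, a fit of only the 2 groups compared, and each library left out. A further alternative left out the 2 dark libraries that stood apart, which were picked from these same data. Other promoter windows were also tried, of which the 500-base window was added after seeing the data.

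The members and lists were chosen with earlier results of these data known. Named genes are the 10, from each list and comparison up to 3 called genes of smallest p, and for each member that rose the 3 non-member genes with the highest Pearson r of log2 CPM (prior count 2) among genes whose mean log2 CPM reached 3. Protein lengths and identities are from translated TAIR10.1 coding sequences, aligned globally with biopython 1.88. Figures were drawn with matplotlib 3.10.9. The promoter of 1 of the 10 genes is not reported here.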

Additional observations from a re-analysis of the deposited data

How the results depend on the processing

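None of the 10 genes was called between genotypes under any alternative. The 7 that rose in red light were 7 in each genotype with DESeq2, limma-voom, RLE factors, library totals alone and no filter. They were 5 in each with a mean of at least 5 CPM, which removed PRR3, PRR5 and PRR9, and 6 in b''ab''b with only its 2 groups, where PRR5 was not tested. With 1 library left out they were 6 to 7 in b''ab''b and 7 to 8 in Col-0. Without the 2 dark libraries that stood apart they were 7 in b''ab''b and 9 in Col-0, where TOC1 and ELF3 also passed (0.57 and 0.34, edgeR adjusted p = 0.0478 and 0.0183). Col-0 dark replicate 1 was the highest dark library for both, so leaving it out by itself raises their change. Deviations of same-numbered libraries from their group means correlated at −0.17 to 0.15. With means of 3 libraries such values cannot decide whether the replicate numbers pair libraries. With the replicate block 7 genes rose in each genotype, all-gene calls in the mean genotype difference went to 14 and PRR5 in the dark genotype difference to −0.10. The cause of the following changes of sign was not tested, and none of these values was called. On library totals alone the red response of TOC1 was −0.0753 in b''ab''b and −0.0329 in Col-0, and that of ELF3 −0.0194 in b''ab''b. Without the 2 dark libraries PRR3 was 0.0524 in the Col-0 response, and in the dark genotype difference TOC1 was 0.334, PRR5 −1.06, PRR7 −0.0716, ELF3 0.105 and GI 0.247. With limma-voom TOC1 was 0.0409 and PRR5 −0.247 there. With each library left out in turn, ranges that crossed 0 were −0.0421 to 0.184 (b''ab''b) and −0.163 to 0.570 (Col-0) for TOC1 and −0.350 to 0.0520 (Col-0) for PRR3 in the red response. For the genotype difference in red light they were TOC1 −0.218 to 0.0565, PRR5 −0.516 to 0.188, PRR7 −0.107 to 0.0244, PRR9 −0.0744 to 0.261, ELF3 −0.130 to 0.0131, ELF4 −0.179 to 0.135 and ZTL −0.157 to 0.00263. In the dark they were TOC1 −0.283 to 0.450, PRR5 −1.11 to 0.411, PRR7 −0.0687 to 0.219, ELF3 −0.0862 to 0.178, GI −0.243 to 0.127 and ZTL −0.246 to 0.0134. Over all genes, genotype calls in red light were 15, but 68 without a filter, 43 with only the 2 groups, 46 without the 2 dark libraries and 9 to 17 with 1 library left out. In the dark they were 10, but 69 without a filter and up to 24 without Col-0 dark replicate 2. Between responses they were 0, but 28 without a filter, 2 without the 2 dark libraries and 3 without Col-0 dark replicate 1. In the mean they were 22, but 116 without a filter, 14 at 5 CPM and 36 without the 2 dark libraries or without Col-0 dark replicate 2. With a 500-base promoter window, added after seeing the data, 2 genes held the CCA1-binding site and 3 held GATTCG, beside 12.5% and 15.4% of all promoters in that window, and the evening element was in 3 genes and 4.44% of all. Depth limits PRR9, with no count in any dark library, and PRR5, with 9 or fewer in each.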
